A study of Mus musculus with 6 samples.

Results

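The 304 genes described here are the autosomal long intergenic noncoding RNAs (lincRNAs) that were measurable in mouse pancreatic islets. They were chosen by class and level, as the rows of the deposited table annotated as lincRNA, not on chromosome X or Y, with a mean over the 6 libraries of at least 1 FPKM (fragments per kilobase, scaled for library depth). The level of each gene was thus selected on, and is described below without a test, while the difference between groups was not used. The table lists 54556 genes, of which 5386 are lincRNA rows and 4743 of those lie outside X and Y. Another 6 lincRNA rows on X or Y reached the same level and were left out by the rule. The 304 rows carry 302 distinct symbols, because A230057D06Rik names 3 rows. All libraries came from whole islets of C57BL/6 mice on normal chow at 8 weeks. There were 3 libraries labelled Mettl3 flox/flox, in which the floxed alleles are present without Cre, and 3 labelled beta-Mettl3-KO, with genotype Mettl3 flox/flox RIP-Cre. Mettl3 encodes the enzyme that deposits N6-methyladenosine (m6A) on RNA, and RIP-Cre places the recombinase under a rat insulin promoter. A Cre-only group is not among them, so Cre and the deletion cannot be told apart. Pooling of mice is not stated either way, so each p-value reflects the spread among 3 libraries, which may be technical.

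LincRNAs are transcribed by RNA polymerase II, and are often capped, spliced and polyadenylated like mRNAs, but lack a long conserved reading frame. Some act in the nucleus, such as Malat1 in nuclear speckles and Neat1, the scaffold of paraspeckles, and others are known mainly as precursors of microRNAs (miRNAs) or small nucleolar RNAs (snoRNAs). Many are expressed in few cell types, and divergent lincRNAs start beside a protein-coding promoter and run away from it.

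Small RNAs cut from host transcripts are the best defined products of this set, and 13 of the 304 genes overlap annotated miRNA genes. The mature sequences below come from RefSeq (GRCm38.p6 tables), are shown for hosts described further on, and have the seed (bases 2 to 8) in capitals. The table measures the host transcripts, not these mature RNAs.
miR-142a-5p: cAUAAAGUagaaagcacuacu
miR-142a-3p: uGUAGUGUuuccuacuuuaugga
miR-191-5p: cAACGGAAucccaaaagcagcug
miR-425-5p: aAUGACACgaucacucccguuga
miR-410-3p: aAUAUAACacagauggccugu
miR-344d-3p: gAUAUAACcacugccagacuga
miR-129-5p: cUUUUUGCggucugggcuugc
The first pair lies in Mir142hg, a host known from blood cells, at chr11:87755577-87757270. miR-191 and miR-425 lie in 4833445I07Rik at chr9:108567533-108569174. miR-410 lies in Mirg, the miRNA-bearing gene of the imprinted Dlk1-Dio3 region, at chr12:109729764-109749460. It shares the seed AUAUAAC with miR-344d-3p, which lies in 2 of the A230057D06Rik rows on chromosome 7. miR-129-5p is encoded in both Gm3294 and Mir670hg.

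Because Mettl3 acts on RNA at a short consensus, 1 stretch of 100 bases is also shown from each of 2 transcripts in the GENCODE M21 annotation (GRCm38), Gm12962 among the largest falls and Mir142hg among the largest rises. The capitals mark GGACT, a common form of the m6A consensus. Each gene was picked for the most matches per kb among the large changes considered in its direction, and each stretch for holding the most matches. A match is a description of letters and not a methylated site.
Gm12962 transcript, bases 19 to 118: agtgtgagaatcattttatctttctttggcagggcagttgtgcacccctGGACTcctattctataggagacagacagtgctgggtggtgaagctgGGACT
Mir142hg transcript, bases 165 to 264: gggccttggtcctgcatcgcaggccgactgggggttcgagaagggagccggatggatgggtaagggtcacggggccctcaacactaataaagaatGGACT
The first transcript, of 691 bases, held 4 such matches, and the second, of 269 bases, held 1.

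The libraries held 16398862 to 18387313 recovered reads. Mettl3 itself had 3.42, 2.89 and 3.93 FPKM in flox/flox replicates 1 to 3 and 4.06, 4.20 and 4.15 in the libraries labelled knockout (log2 difference 0.25 ± 0.11, standard error, SE, limma adjusted p = 0.12), so its level does not check the genotype. Several marker lists moved between the groups. Of 12 beta-cell markers 11 fell, with a summed level of 257470 to 319727 FPKM in flox/flox libraries against 112226 to 125539 in the libraries labelled knockout, and all 9 endothelial markers fell, at 613 to 632 against 314 to 356. Of 17 tested enterocyte markers 15 rose, from 68.1 to 80.7 summed FPKM to 213, 1073 and 578 in labelled-knockout replicates 1, 2 and 3. Of 11 B-cell and plasma-cell markers 10 rose (115 to 122 against 1342 to 2058 summed FPKM), as did all 11 tested T-cell markers (3.11 to 5.88 against 51.4 to 103). Of 6 alpha-cell markers 1 rose and 5 did not pass, and of 8 tested fibroblast and pericyte markers 5 rose and 2 fell. Of defining markers, Alpi of enterocytes and Gzmb of cytotoxic lymphocytes had 0 FPKM in all 3 flox/flox libraries. In whole islets, fewer cells of a type and less RNA per cell cannot be told apart.

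More lincRNAs were lower than higher in the libraries labelled knockout. With limma across all 14497 tested genes, 80 of the 304 lincRNAs fell (26.3%) and 23 rose (7.57%) at a Benjamini-Hochberg adjusted p under 0.05, and 201 did not pass. The background over all tested genes was 17.2% lower and 16.9% higher, and over protein-coding genes 17.4% and 18.0%. Calls in either direction came to 33.9% of lincRNAs against 34.0% of all tested genes, so the set was called about as often as any gene and differed in how the calls divided. The median log2 difference (labelled knockout minus flox/flox, on log2 of FPKM plus 0.5) was -0.24 for the lincRNAs and -0.0045 for all tested genes, and 206 of the 304 were below 0. Scaled to each library's own total, 62 lincRNAs were higher and 43 lower, and their median turned to 0.088. That scaling moved the median of all tested genes to 0.36, with 52.1% higher and 4.94% lower, so relative to all genes the lincRNA median lay 0.27 lower under it and 0.24 lower under the deposited scaling.

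Part of this count is of lincRNAs that reached the threshold on the mean through 1 group only. The rule admitted 46 lincRNAs whose flox/flox mean alone reached 1 FPKM and 15 whose labelled-knockout mean alone did, and these could enter only by being high in that group. Of the first 22 fell, and of the second 8 rose. Among the 243 lincRNAs with both means at 1 FPKM or more, 58 fell, 15 rose and 170 did not pass, with a median log2 difference of -0.18. Groups did not overlap for 145 lincRNAs, or 47.7%, against 50.5% of all tested genes. Differences of at least 1 on the log2 scale passed the test as falls in 31 lincRNAs and as rises in 12, against 2.65% lower and 5.14% higher over all tested genes. Of these, 17 falls and 7 rises were of lincRNAs that entered through 1 group only, and among those with both means at 1 FPKM or more there were 14 falls and 5 rises. Leaving out labelled-knockout replicate 3 reduced the rises to 12 and the falls to 56, beside 9.45% higher and 9.73% lower over all genes in that fit.

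**Figure D1:**
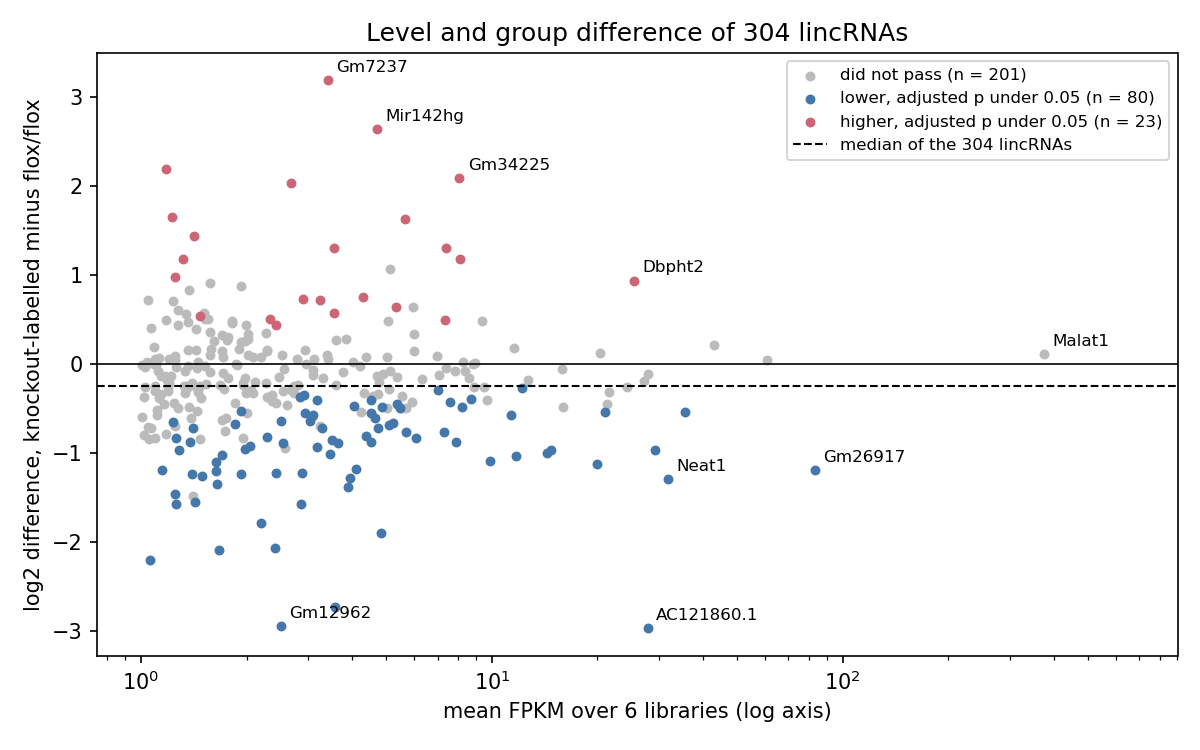
Each point is 1 of the 304 lincRNAs, with its mean level over 6 libraries on a log axis in FPKM and its log2 difference between labelled-knockout and flox/flox libraries (3 each). The 80 lower and 23 higher genes are coloured, the dashed line is the set's median of -0.24, and of the 16 genes at 20 FPKM or more 6 are lower and 1 is higher.

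Most of these lincRNAs were rare. The median gene had a mean of 2.31 FPKM and 58.3 reads per library, while the median tested protein-coding gene had 6.31 FPKM. There were 135 lincRNAs at 1 to 2 FPKM, 96 at 2 to 5, 57 at 5 to 20 and 16 at 20 or more, and 82 averaged under 30 reads per library. Falls outnumbered rises in every level class, counting lincRNAs that entered through 1 group only. Of those, the 46 that entered through flox/flox libraries had a median mean of 1.25 FPKM and 22 falls. The 15 that entered through labelled-knockout libraries had a median mean of 1.28 FPKM and 8 rises. The counts at low levels thus include lincRNAs that could enter only by being high in 1 group, and the part of the threshold in them was not tested. The counts were 21 lower to 6 higher at 1 to 2 FPKM, 34 to 10 at 2 to 5, 19 to 6 at 5 to 20 and 6 to 1 at 20 or more. Protein-coding genes of 1 to 2 FPKM divided the other way, with 91 lower and 335 higher of 1621, and those of 20 or more gave 589 lower and 235 higher of 1766. LincRNAs also varied more between libraries of a group, with a median within-group SD of 0.24 on the log2 scale against 0.13 for protein-coding genes.

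Under the deposited scaling other noncoding classes of the table leaned to falls as well. Antisense genes gave 61 lower and 22 higher of 320, processed transcripts 29 and 9 of 142, and lncRNAs annotated at bidirectional promoters 13 and 0 of 42. Genes of the table's class TEC gave 21 lower and 12 higher of 135. Processed pseudogenes, copies of mRNAs without introns, gave 39 lower and 45 higher of 579, and protein-coding genes 2067 and 2138 of 11886. The deposited scaling sets the typical gene to no difference. Own-total scaling gave 62 antisense genes higher and 25 lower, 33 processed transcripts higher and 13 lower, and 4 bidirectional-promoter lncRNAs higher and 6 lower. For TEC genes it gave 36 higher and 9 lower. Over all tested genes that scaling gave 52.1% higher and 4.94% lower. Antisense, processed-transcript, bidirectional-promoter and TEC medians, minus that of all tested genes, were -0.19, -0.18, -0.38 and -0.12 under it. Under the deposited scaling they were -0.15, -0.15, -0.35 and -0.075.

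Malat1 was the most abundant lincRNA and did not pass the test, while Neat1, its neighbour on chromosome 19, fell. Malat1 (chr19:5795690-5802672, minus strand) had 359, 341 and 376 FPKM in flox/flox replicates 1 to 3 and 322, 421 and 427 in labelled-knockout replicates 1 to 3. Labelled-knockout replicate 1 lay lowest of all 6 libraries and replicates 2 and 3 highest, so the groups overlapped (log2 difference 0.11 ± 0.13, SE, limma adjusted p = 0.531). Under own-total scaling it passed as higher, by 0.52 (limma adjusted p = 0.0156). Neat1 (chr19:5824708-5845478) had 47.2, 43.4 and 45.3 FPKM in the 3 flox/flox libraries and 16.7, 20.4 and 17.7 in the others. Every labelled-knockout value was below every flox/flox value, and the mean went from 45.3 ± 1.86 to 18.3 ± 1.93 FPKM (SD, n = 3 each). The log2 difference of -1.29 ± 0.09 (SE) had a limma adjusted p of 0.000249, and it passed as lower in all 15 alternative fits, between -1.41 and -0.89.

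Malat1 alone carried enough reads to set the share of the whole set. The 304 lincRNAs took 0.583% ± 0.0278 of the reads of flox/flox libraries against 0.668% ± 0.0647 in libraries labelled knockout (SD, n = 3 each). Malat1 took 0.214%, 0.210% and 0.232% in the first group and 0.255%, 0.344% and 0.349% in the second. Without it the share was 0.364% ± 0.0198 and 0.351% ± 0.0122, a difference smaller than the spread between flox/flox libraries. On the deposited scale the sums were lower, from 1999 ± 101 to 1679 ± 58.7 FPKM over the whole set (SD, n = 3 each). Without Malat1 the flox/flox sums lay between 1549 and 1731 FPKM and the labelled-knockout sums between 1270 and 1305, without overlap. Neat1 went from 0.0822% ± 0.00234 of reads to 0.0440% ± 0.00524. No test was made of these sums.

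**Figure D2:**
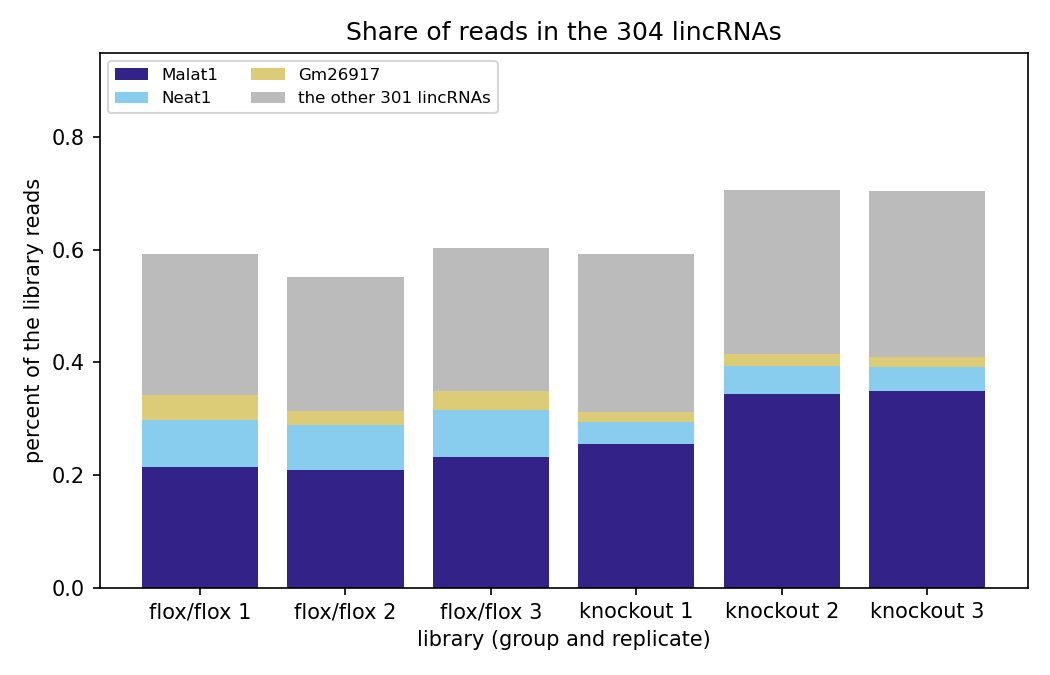
Stacked bars give the percent of each library's recovered reads that fell in the 304 lincRNAs, by library. Malat1 fills the lower block and is largest in labelled-knockout replicates 2 and 3 (0.344% and 0.349%), while the Neat1 block shrinks in all 3 labelled-knockout libraries.

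The other 6 of the 8 most abundant lincRNAs went separate ways. Gm26917 (chr17:39843013-39846341), the next after Malat1, had 154, 82.4 and 115 FPKM in flox/flox libraries and 46.0, 55.6 and 47.2 in the others. All flox/flox values were higher but they also spread widely (log2 difference -1.19 ± 0.22, SE, limma adjusted p = 0.00807). It ends 12 bases before CT010467.1, a gene annotated as ribosomal RNA, which had 2.89, 2.36 and 3.09 and 1.07, 1.51 and 1.49 FPKM and also passed as lower (log2 difference -0.82 ± 0.16, SE, limma adjusted p = 0.0088), and the part of ribosomal RNA in the fall of Gm26917 was not tested. Gm10076 had 60.9, 62.0 and 53.1 and 55.0, 90.2 and 44.8 FPKM, with labelled-knockout replicate 2 alone far above the rest, and did not pass. Gm15706 had 32.0, 26.3 and 28.2 and 32.0, 21.3 and 27.4 FPKM and did not pass either (limma adjusted p = 0.609). Of the A230057D06Rik rows, ENSMUSG00000109394 fell from 39.0 ± 8.89 to 19.5 ± 2.02 FPKM (SD, n = 3 each), by 0.96 ± 0.17 on the log2 scale (SE, limma adjusted p = 0.00688). The A230057D06Rik rows that contain the miR-344 genes, ENSMUSG00000109554 and ENSMUSG00000108824, had log2 differences of -0.18 and -0.02 and did not pass.

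2900097C17Rik and 1700020I14Rik, the mouse genes of Norad and Cyrano, were slightly higher in level without passing. Norad is known for binding Pumilio proteins and Cyrano for directing decay of miR-7. 2900097C17Rik had 39.3, 38.8 and 41.1 FPKM in flox/flox libraries and 50.6, 40.8 and 47.1 in the others, and the lowest labelled-knockout value fell inside the flox/flox range (log2 difference 0.21 ± 0.09, SE, limma adjusted p = 0.119, with 0.0304 without labelled-knockout replicate 2 and 0.0313 under quantile normalization). 1700020I14Rik had 10.7, 10.6 and 11.3 and 11.5, 13.1 and 12.4 FPKM, groups that did not overlap (log2 difference 0.18 ± 0.07, SE, limma adjusted p = 0.0999). Both passed as higher under own-total scaling (limma adjusted p = 0.00145 and 0.00152). Both were placed with Malat1 and Neat1 in a list headed nuclear-body and chromatin-associated lincRNAs, a heading that their roles given here are not tied to. In that list 1 of 4 members of the set fell, Neat1, and 3 did not pass, beside 33.9% of the set called.

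Host genes of snoRNAs were called at about the rate of all tested genes. Their introns release the snoRNAs, which guide the modification of ribosomal RNA, and the spliced exons are often degraded. Of 6 members on that list 2 fell, Snhg20 and Snhg10, and Snhg6, Snhg12, Snhg18 and Epb41l4aos did not pass, with log2 differences between -0.13 and -0.0013. Over all 17 tested genes of the list, whatever their class, 5 fell, 0 rose and 12 did not pass, with a median of -0.06, beside 34.0% of all tested genes called. Snhg20 had 26.5, 21.5 and 27.0 FPKM in flox/flox libraries and 15.7, 17.7 and 17.4 in the others, without overlap, and fell by 0.54 ± 0.11 on the log2 scale (SE, limma adjusted p = 0.00972). Snhg10 had 6.87, 7.07 and 5.22 and 3.81, 3.09 and 4.47 FPKM and fell by 0.68 ± 0.16 (SE, limma adjusted p = 0.0177), a call that ended when flox/flox replicate 1 or 2 was left out (adjusted p = 0.0575 and 0.055) and in limma-voom on recovered reads (0.0561). Under own-total scaling both stayed below 0, at -0.15 and -0.32, without passing. 4 members of the set overlap annotated snoRNA genes, and none of the 4 was called.

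Among the 13 lincRNAs that overlap miRNA genes, 1 rose, 4 fell and 8 did not pass, with a median log2 difference of -0.16. That is 38.5% called, near the 34.0% of all tested genes. The riser was Mir142hg, with 0.983, 0.772 and 1.00 FPKM in flox/flox libraries against 6.24, 9.50 and 9.68 in the others. It had 3 or 4 reads in each flox/flox library and 35, 50 and 54 in the others, so all labelled-knockout values stood far above the rest. The rise came to 2.64 ± 0.18 on the log2 scale (SE, limma adjusted p = 0.000237). Mir142hg had a flox/flox mean under 1 FPKM, so it entered the set only through the labelled-knockout libraries. Its miRNA is known from blood cells, and the B-cell and T-cell markers given above rose in the same 3 libraries. Their part in the rise was not tested. The other lincRNA on the leukocyte list, AW112010, known from activated lymphocytes and myeloid cells, had 20.7, 20.4 and 16.6 and 16.4, 28.5 and 19.5 FPKM with overlapping groups (limma adjusted p = 0.664).

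The 4 miRNA hosts that fell were Mirg, 4833445I07Rik, Snhg10 and Snhg20. Mirg had 10.7, 9.03 and 9.25 FPKM in flox/flox libraries and 6.17, 7.56 and 6.59 in the others, so the groups did not overlap. It fell by 0.48 ± 0.10 on the log2 scale (SE, limma adjusted p = 0.0131), and without labelled-knockout replicate 3 the adjusted p was 0.0539. Its log2 difference under own-total scaling was -0.10 and did not pass. Mirg holds 14 annotated miRNA genes, including the one for miR-410-3p shown above. Meg3 of the same imprinted region was under 1 FPKM and outside the set. 4833445I07Rik, host of miR-191 and miR-425, had 1.81, 2.15 and 1.68 and 0.876, 0.997 and 0.940 FPKM and fell by 0.72 ± 0.15 (SE, limma adjusted p = 0.0129). Its labelled-knockout mean was under 1 FPKM, so it entered the set only through the flox/flox libraries. It lies 99 bases from Ndufaf3, a mitochondrial complex I assembly factor on the other strand, which fell too, by 0.54 ± 0.10 (SE, limma adjusted p = 0.00765). Mir670hg, with miR-129-2 and miR-670, had 9.72, 9.23 and 8.32 and 8.09, 8.68 and 7.53 FPKM and did not pass.

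The largest falls were of genes without a described role. AC121860.1 (chr15:12068248-12085197, 6 exons, minus strand) was among the more abundant lincRNAs of flox/flox islets, at 55.7, 41.4 and 52.0 FPKM, and had 4.58, 6.97 and 6.26 in the libraries labelled knockout. Every labelled-knockout value was below 7 FPKM, and the gene fell by 2.97 ± 0.17 on the log2 scale (SE, limma adjusted p = 0.000133). It rested on 1666 to 2347 reads per flox/flox library and 266 to 380 in the others. The nearest tested protein-coding gene, Zfr, an RNA-binding zinc finger protein 32634 bases away, had a log2 difference of -0.09 and did not pass (limma adjusted p = 0.414).

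Gm12962 (chr4:131647048-131677845) had 5.63, 4.02 and 4.83 FPKM in flox/flox libraries and 0.149, 0.159 and 0.250 in the others, or 56 to 82 reads against 3 to 5. It fell by 2.95 ± 0.17 on the log2 scale (SE, limma adjusted p = 0.000135). Gm34654 had 7.54, 6.34 and 5.79 and 0.717, 0.191 and 0.901 FPKM and fell by 2.73 ± 0.27 (SE, limma adjusted p = 0.00088). In both genes the groups stood far apart. Their labelled-knockout means were under 1 FPKM, so both entered the set only through the flox/flox libraries. Gm44744 had 25, 32 and 21 reads in flox/flox libraries and 0, 0 and 3 in the others, where a count of 0 allows up to 3 reads. The other members among the 10 largest falls were 4933428C19Rik, Gm33447, Gm27168, Gm30606, Gm27030 and Gm2861, at log2 differences of -2.09 to -1.58 with limma adjusted p between 0.000715 and 0.00899. Their flox/flox means were 2.13 to 7.88 FPKM and their labelled-knockout means 0.320 to 1.75. Gm44744 and those with a labelled-knockout mean under 1 FPKM also entered the set only through the flox/flox libraries. All 10 also passed as lower under own-total scaling. Beta-cell, endothelial and acinar markers fell in the same libraries (11 of 12, 9 of 9 and 11 of 13), and their part in these falls was not tested. Summed acinar levels varied widely, at 892, 2719 and 1431 FPKM in flox/flox replicates 1 to 3. They were 757, 402 and 552 FPKM in labelled-knockout replicates 1 to 3.

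**Figure D3:**
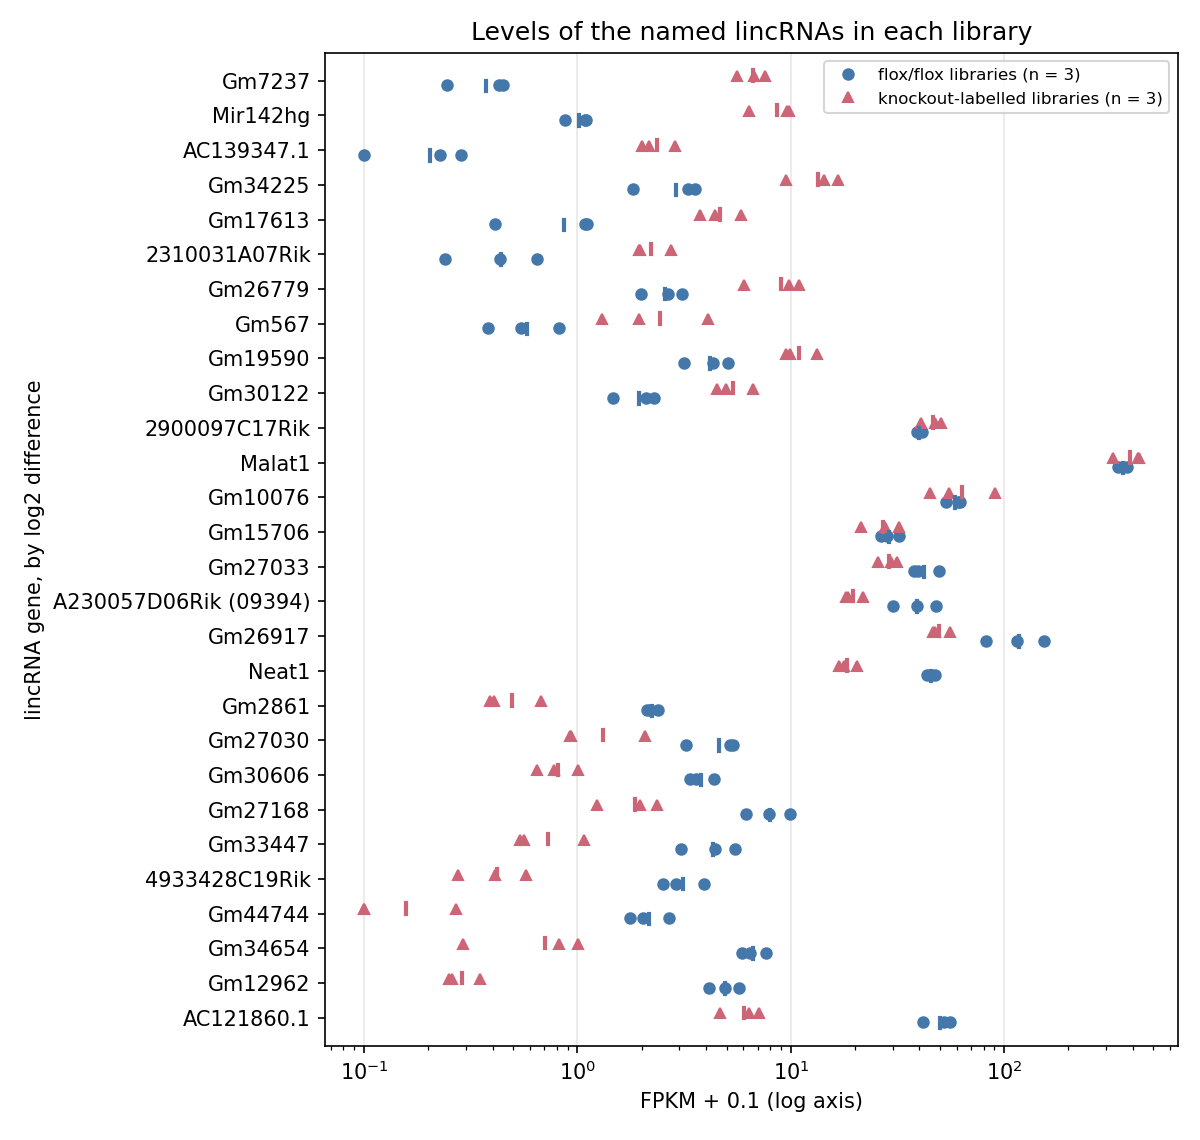
Each row is a lincRNA with the 10 largest rises, the 10 largest falls or the 8 highest means, ordered by log2 difference. Points are the 3 flox/flox (circles) and 3 labelled-knockout libraries (triangles) on a log axis of FPKM plus 0.1, and short bars are group means. The 10 rises and 10 falls were picked among called lincRNAs whose groups do not overlap, so that separation was selected.

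Gm7237 had the largest rise. This gene of 9 exons (chr19:33409131-33420642, minus strand) had 0.330, 0.346 and 0.144 FPKM in flox/flox libraries against 7.43, 5.51 and 6.64 in the others, or 3 to 7 reads against 151 to 217. The 3 labelled-knockout values lay close together and far above the rest (log2 difference 3.19 ± 0.17, SE, limma adjusted p = 9.35e-05). Gm34225 (chr7:115031937-115066824) had 3.21, 1.72 and 3.44 and 16.5, 9.36 and 14.2 FPKM and rose by 2.08 ± 0.28 on the log2 scale (SE, limma adjusted p = 0.00255). AC139347.1 had 3, 0 and 2 reads in flox/flox libraries and 62, 40 and 46 in the others, and Gm17613 had 10, 3 and 10 against 80, 48 and 60. Gm26779 rose from 2.48 ± 0.562 to 8.85 ± 2.58 FPKM and Gm19590 from 4.08 ± 0.951 to 10.8 ± 2.09 (SD, n = 3 each; limma adjusted p = 0.00364 and 0.00338). 2310031A07Rik, Gm30122 and Gm567 complete the 10 largest rises with Mir142hg, and their log2 differences were 1.65, 1.30 and 1.44. Those of the 10 with a flox/flox mean under 1 FPKM, such as Gm7237, entered the set only through the labelled-knockout libraries. Gm567 rested on 2 to 5 reads per flox/flox library and 11 to 39 in the others. Its call (limma adjusted p = 0.0292) was lost without any 1 of flox/flox replicates 1, 2 and 3 or labelled-knockout replicates 1 and 3 (adjusted p = 0.0504 to 0.0807). It was also lost without a filter on low values, under quantile normalization, with a replicate block (adjusted p = 0.0545) and in limma-voom.

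Dbpht2 and AU020206 were chosen after their values were seen, for having the smallest SE among the 23 risers, so their tight values are a description. Dbpht2 (chr12:74296668-74302008) had 17.4, 17.3 and 17.3 FPKM in flox/flox libraries and 34.6, 32.7 and 33.6 in the others; neither group varied by more than 2 FPKM (log2 difference 0.94 ± 0.06, SE, limma adjusted p = 0.000158). AU020206 had 5.20, 4.47 and 4.69 and 11.8, 11.4 and 11.1 FPKM (log2 difference 1.18 ± 0.08, SE, limma adjusted p = 0.000198). The enterocyte markers were lowest in labelled-knockout replicate 1, higher in replicate 3 and highest in replicate 2. The same order of the labelled-knockout libraries held for 2 of the 23 risers (8.70%), against 26.2% of all 2446 genes that rose. Among the 80 falls it held for 18 (22.5%), against 26.7% of all 2489 genes that fell. Whether the lincRNA calls follow the enterocyte markers was not tested. Without labelled-knockout replicates 2 and 3, a fit chosen after seeing the data that treats the remaining library as varying like the flox/flox libraries, 10 lincRNAs were higher and 21 lower, beside 5.32% higher and 3.77% lower over all genes in that fit.

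Position relative to other genes divided the set. By the coordinates of the deposited table, 37 lincRNAs overlapped a gene on their own strand and 70 overlapped a gene on the other strand only. Of the remaining lincRNAs, 49 started within 1 kb of a protein-coding start and ran away from it, 99 others lay within 5 kb of a gene and 49 lay over 5 kb from any. Overlaps were assigned first, so a divergent lincRNA that overlaps a gene is not among the 49 divergent ones. Among the 49 divergent lincRNAs 15 fell, 0 rose and 34 did not pass, with a median log2 difference of -0.49. Over all tested genes 17.2% were lower and 16.9% higher. Under own-total scaling 8 of the divergent lincRNAs were lower (16.3%) and 5 higher (10.2%), with a median of -0.13. Over all tested genes that scaling gave 4.94% lower and 52.1% higher, with a median of 0.36. For the divergent lincRNAs limma-voom on recovered reads gave 14 lower and 0 higher, beside 17.8% lower and 17.1% higher over all genes. Among the 49 isolated lincRNAs 14 fell and 10 rose, with a median of -0.29, so these hold 10 of the 23 risers. Own-strand overlaps gave 14 lower and 1 higher of 37, other-strand overlaps 11 and 3 of 70, and the rest 26 and 9 of 99. The strandedness of the counting is unknown here, and reads of overlapping genes then cannot be told apart. The differences between these classes were not tested.

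**Figure D4:**
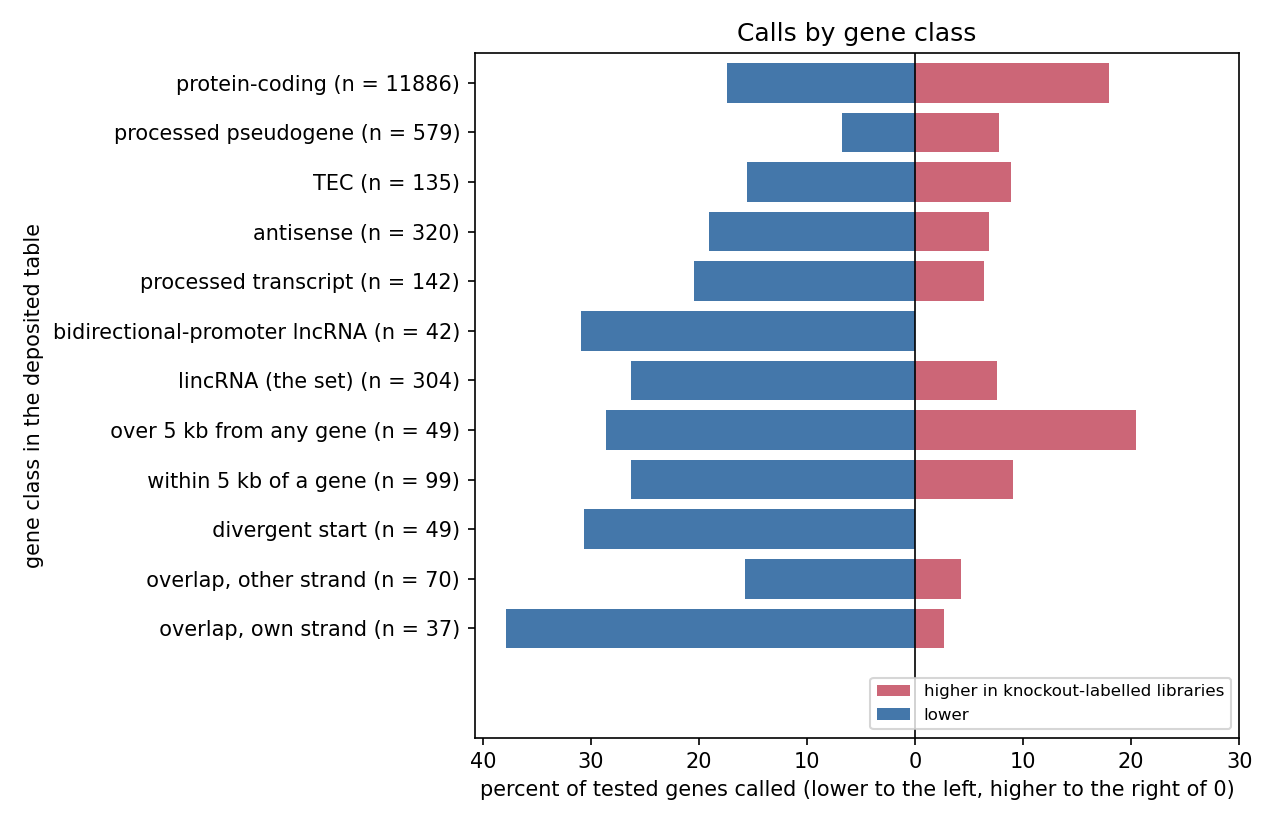
Bars give the percent of tested genes called lower (left of 0) or higher (right of 0) in labelled-knockout libraries, by gene class, with the number of genes beside each name and the 5 position classes of the 304 lincRNAs in the lower rows. The divergent lincRNAs and the bidirectional-promoter lncRNAs have no bar to the right, while isolated lincRNAs have 20.4% higher.

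LincRNAs and their nearest tested protein-coding genes had log2 differences of the same sign about as often as not. The sign was shared in 144 of 304 pairs (47.4%), and in 88 of 176 pairs within 10 kb. For protein-coding genes and their nearest protein-coding neighbour the shares were 53.8% and 54.5%. Across the 176 close pairs Pearson's r was 0.20 and Spearman's rho 0.15, a description over genes that share libraries and can share reads. Both genes were called in 53 pairs. In 19 of these both fell, in 7 both rose, in 23 the lincRNA fell and the neighbour rose, and in 4 the reverse held. The direction was thus shared in 26 of the 53. Among 11880 protein-coding genes and their nearest protein-coding neighbour, both were called in 1591 pairs, and 962 of those shared the direction. Whether these shares differ was not tested.

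Single pairs show the range. 4933428C19Rik (chr4:40482840-40525548), with 2.42, 3.81 and 2.80 FPKM in flox/flox libraries and 0.176, 0.313 and 0.472 in the others, lies 5672 bases from Tmem215, a transmembrane protein gene on the other strand. Tmem215 had 40.5, 40.3 and 41.7 FPKM and 11.1, 9.39 and 10.1, and both fell (-2.09 ± 0.23 and -1.95 ± 0.07, SE, limma adjusted p = 0.00123 and 3.26e-05). The labelled-knockout mean of 4933428C19Rik was under 1 FPKM, so it entered the set only through the flox/flox libraries. Gm27033 (chr5:147280720-147281263) lies on the same strand, 4872 bases from Pdx1, the transcription factor of pancreas development and beta-cell identity. Gm27033 had 49.2, 39.4 and 37.5 FPKM and 25.6, 31.2 and 29.5 in the 2 groups and fell by 0.53 ± 0.12 (SE, limma adjusted p = 0.0186, and 0.0565 without labelled-knockout replicate 3). Pdx1 fell by 0.84 ± 0.10 (SE, limma adjusted p = 0.00135). Under own-total scaling Gm27033 had a log2 difference of -0.13 and did not pass.

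Gm7237 lies 16836 bases from Rnls, the gene of renalase, and both rose (Rnls by 1.06 ± 0.24, SE, limma adjusted p = 0.0177). Other pairs parted. Gm567 lies 40359 bases from Emcn, an endothelial sialomucin, which fell by 1.13 ± 0.13 (SE, limma adjusted p = 0.00129). Gm19590 rose while Kdr, the endothelial VEGF receptor 97182 bases away, fell by 0.88 ± 0.10 (SE, limma adjusted p = 0.00162). Epb41l4aos had 16.1 ± 1.21 FPKM in flox/flox and 15.6 ± 3.00 in labelled-knockout libraries (SD, n = 3 each) and did not pass, while Epb41l4a, 341 bases away on the other strand, fell by 1.41 ± 0.20 (SE, limma adjusted p = 0.00336). Paupar, transcribed upstream of the islet and eye regulator Pax6, had 4.16, 4.21 and 4.31 and 5.01, 3.86 and 4.67 FPKM (log2 difference 0.08 ± 0.10, SE, limma adjusted p = 0.59), and passed as higher under own-total scaling (limma adjusted p = 0.00923). Pax6 fell by 0.46 ± 0.08 (SE, limma adjusted p = 0.00595), and whether the members of these pairs differed from each other was not tested.

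**Figure D5:**
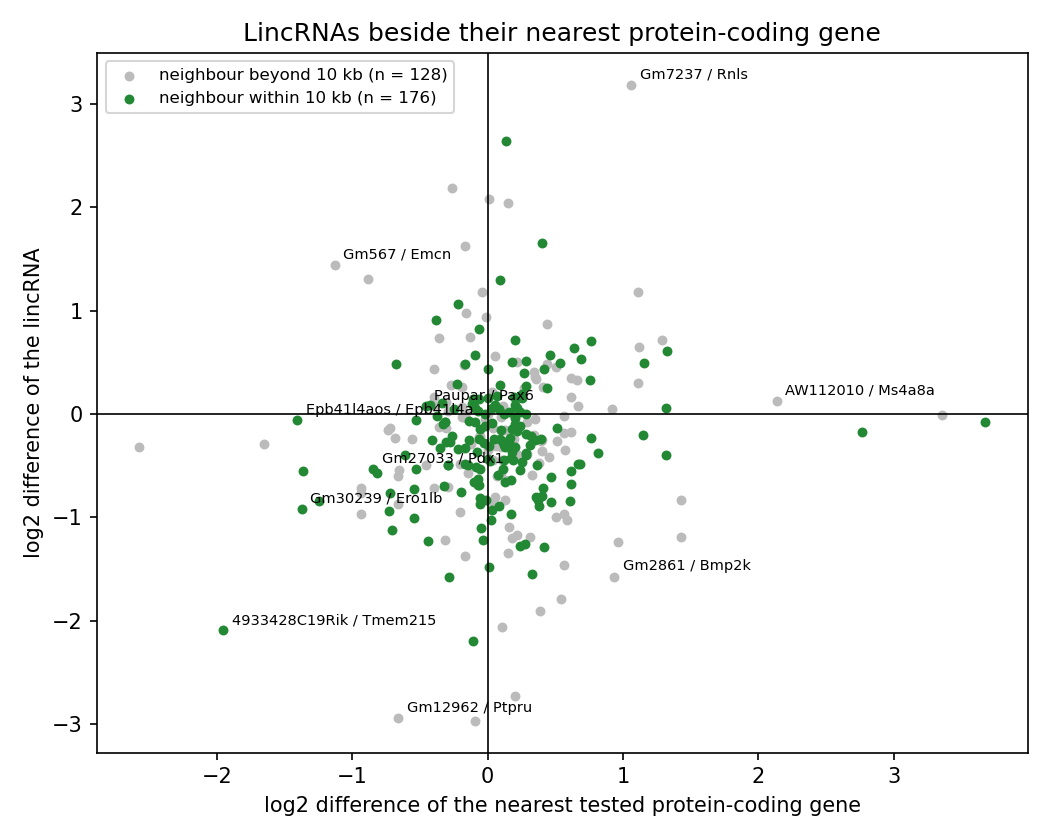
Each point is a lincRNA, with the log2 difference of its nearest tested protein-coding gene on the horizontal axis and its own on the vertical axis, green where they lie within 10 kb (176 pairs). Labels give the lincRNA and its neighbour, and points fill all 4 quadrants, with 4933428C19Rik and Tmem215 low on both axes.

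Sequence features were described by call, without a test. GGACT, read on the transcript strand only, occurred at a median of 0.901 per kb in the 301 lincRNAs with a GENCODE M21 transcript, at 1.12 in the 79 that fell, 0.593 in the 23 that rose and 0.893 in the 199 that did not pass. In the 4422 other autosomal lincRNA rows it was 0.931. Its reverse complement AGTCC had medians of 0.784, 0.593 and 0.803 per kb in the same 3 groups. The mean density of GGACT was 1.24 with an SD of 1.12 among genes that fell and 0.805 with an SD of 1.06 among those that rose. Pooled over all bases of a group, GGACT came to 1.21 and 0.756 per kb and AGTCC to 0.812 and 0.715 per kb in the same order. Whether density differed between the groups was not tested. Mir142hg and Gm12962, shown above, had 3.72 and 5.79 matches per kb. They were picked by density, 1 from each direction, so the pair cannot show how density and direction relate.

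RefSeq promoters (GRCm38.p6, 250 bases before to 50 after a start) lay within 100 bases of the annotated start of 102 lincRNAs. The promoter of 4933428C19Rik, the gene that fell with Tmem215, is shown with TAATTA, the core letters bound by many homeodomain factors, in capitals. It lies at chr4:40525499-40525798 on the minus strand.
4933428C19Rik promoter: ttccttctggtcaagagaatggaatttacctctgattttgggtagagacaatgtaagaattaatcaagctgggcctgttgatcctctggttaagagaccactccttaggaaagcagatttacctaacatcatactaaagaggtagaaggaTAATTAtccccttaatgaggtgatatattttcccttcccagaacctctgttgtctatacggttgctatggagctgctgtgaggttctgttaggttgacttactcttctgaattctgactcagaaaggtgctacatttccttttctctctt
TAATTA, its own reverse complement, was found in 5.88% of the 102 lincRNA promoters and in 5.29% of all 32851 RefSeq promoters of 300 bases. By call it was in 1 of 32 promoters of lincRNAs that fell, the one shown, 2 of 7 that rose and 3 of 63 that did not pass. TGCTGA, the half-site letters of Maf factors, was in 18.6% and 19.5%, CAGATG, an E-box form, in 13.7% and 17.2%, and TATAAA, the TATA box letters, in 12.7% and 13.6%, each searched on both strands. A GC content over 60% was seen in 12 of 32 promoters of lincRNAs that fell, 20 of 63 that did not pass and 0 of 7 that rose. The motif shares of this set lay within a few points of those of all promoters.

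Genes on either side of the threshold differed little in level. Just above a mean of 1 FPKM stood Gm13814, Gm32633 and 1700026J14Rik, with means of 1.01, 1.01 and 1.02, and just below it Gm20109, A330069E16Rik and Gm31793, with 0.998, 0.993 and 0.982. 1700026J14Rik had 0.250, 2.53 and 1.19 FPKM in flox/flox replicates 1 to 3 and 0.846, 0.837 and 0.486 in the others. Its flox/flox values alone span those of all labelled-knockout libraries. Gm13814 had 1.48, 1.03 and 1.42 and 0.577, 0.731 and 0.784 FPKM, groups that did not overlap, as in 50.5% of all tested genes. It did not pass (limma adjusted p = 0.067). All labelled-knockout values of 1700026J14Rik and Gm13814 were under 1 FPKM, so both entered the set only through the flox/flox libraries.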

How the data were processed

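RNA of whole islets was sequenced in 6 libraries, 3 per group. The submitters' processing notes name the GRCm38 build at patch 6, the aligner HISAT2 2.0.5, the counter featureCounts 1.5.0-p3 and also DESeq2 1.16.1, without their settings or the strandedness. The authors deposited 1 table of FPKM values with gene lengths, coordinates and classes per the file headers, and 0 value columns were left unused. Multiplied by gene length, FPKM values were whole multiples of a single step in each library, so reads were recovered (100% of values within 0.1 of a whole number). Their divisors, relative to own totals, were 0.855 to 0.885 in flox/flox and 1.13 to 1.17 in labelled-knockout libraries, those of a median-of-ratios scaling. Such a scaling sets the typical gene to no difference, and total RNA per cell is not measured.

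The test was limma 3.58.1 in R 4.3.3 with a variance trend, for genes with a mean of at least 1 FPKM, on log2(FPKM + 0.5), two-sided, with p adjusted by Benjamini-Hochberg over all 14497 tested genes and a threshold of 0.05. Differences are on that log2 scale, which understates changes of low genes. As an alternative chosen after seeing the data, limma-voom was run on the recovered reads and called 2483 genes higher and 2578 lower. The test was first tried on simulated data. Positions came from the deposited table, and exons and transcripts from GENCODE M21, in which 301 of the 304 identifiers were found, 17 of them under another class. Depth limits rare genes, and floors cover counting error only.

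Genes were named by a rule: members of the lincRNA lists, the 10 largest rises and falls among called genes whose groups did not overlap, the 8 highest means, the 3 genes on either side of the threshold, and nearest protein-coding genes. The set, lists and rule were chosen with earlier results of these data known. Other settings tried were the pseudocount, the filter, the scaling, a replicate block, leaving out libraries, a higher threshold and isolated genes.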

Additional observations from a re-analysis of the deposited data

How the results depend on the processing

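The counts of 23 higher and 80 lower lincRNAs depended most on the scaling and the number of libraries. Own-total scaling gave 62 higher and 43 lower with a median log2 difference of 0.088, and of the 103 calls 66 were called in the same direction, 2 changed sign without a call and 0 were called in the other direction. Quantile normalization moved the median to -0.39. Without a filter on low values 53 were lower, with 32456 genes adjusted for; at a filter of 5 FPKM 73 lincRNAs were tested, with 8 higher and 25 lower; and the 49 isolated lincRNAs gave 10 and 14. Leaving out each library in turn gave 12 to 23 higher, 56 to 72 lower and medians of -0.25 to -0.22. Without labelled-knockout replicates 2 and 3 there were 10 higher and 21 lower. The lincRNA share of reads rose by 0.0848 percentage points with Malat1 and fell by 0.0126 without it. Pseudocounts of 0.1 and 1, a threshold of 2 FPKM and limma-voom kept both counts within 1.5 times. Replicate numbers did not pair the samples (correlations of same-numbered deviations 0.0811, 0.0751 and 0.0423), and a replicate block gave 22 higher and 74 lower. Of 610 alternative results for the 42 named rows, 570 kept the call or its absence, 32 lost the call, 8 gained one and 0 were called in the other direction. Among the 570, 28 results of 11 genes without a call changed sign. Of the losses, 14 came with labelled-knockout replicates 2 and 3 left out (Gm34225, Gm17613, Gm19590, 2310031A07Rik, Gm30122, Gm26917, Gm27030, Gm27168, Gm33447, Gm27033, Mirg, Snhg10, Snhg20 and 1 row of A230057D06Rik). Gm13814 passed as lower under quantile normalization and limma-voom (adjusted p = 0.011 and 0.0252). The 82 lincRNAs under 30 reads per library have the least certain differences.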
